A study of Mus musculus with 18 samples.

Results

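The response of mouse kidney to D-galactosamine was compared with that of mouse liver 24 h after injection. D-galactosamine (GalN) is an amino sugar that is taken up by hepatocytes and injures them selectively. The quantity compared is the difference of the responses, the change in kidney from sham to 24 h minus the change in liver from sham to 24 h, on the log2 scale. A negative difference means that the liver's response lay above the kidney's, and a positive one that the kidney's response lay above the liver's. The comparison took 12 of the 18 arrays of the series, 3 in each of 4 groups, and the 9968 of 18193 genes whose value was more than 1 above the lowest value of the table in at least 3 arrays of each tissue. The other 8225 genes did not pass this limit in both tissues and were left out. Some genes that passed still read at background in 1 tissue, as described below. Of the 9968 genes, 9418 were above that limit in all 12 arrays.

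The series examined kidney dysfunction during massive liver necrosis. All animals were male C57BL6 mice, an inbred laboratory strain. The sham groups received intraperitoneal saline and the GalN groups 4.5 g per kg of GalN intraperitoneally, and liver and kidney were taken 24 h later from both. Whole-organ RNA was read on Affymetrix mouse genome arrays, and arrays taken at 48 h entered only the estimate of the spread. A mouse given GalN carries the injury in its liver, so the kidney was exposed both to the agent and to the failing liver, and these cannot be told apart here. Whether the RNA of 3 mice was pooled before labelling is not clear from the protocol. If it was, the p-values measure only the spread between arrays, which may be technical.

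Hepatocytes convert GalN to UDP-sugar derivatives, which traps uridine nucleotides and blocks RNA and protein synthesis in these cells. The kidney filters the blood and makes glucose and several steroid and vitamin hormones, and its proximal tubule shares many metabolic enzymes with the hepatocyte. Several regulators drive stress programs in both organs. The tumour suppressor p53 induces cell cycle inhibitors after damage, NRF2 induces antioxidant enzymes, and SREBP2 induces the enzymes of sterol synthesis when membranes lack cholesterol.

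Values are log2 gcRMA expression values. Array medians lay between 2.36 and 2.43 and the 75th percentiles between 6.45 and 7.07, and arrays of 1 group correlated with r between 0.983 and 0.998. A low reading of a probe set often recurs to the last digit in another array and is then taken as background. Of readings above 3 and up to 5, 40.8% did so, and a gene past the limit can thus still read at background. A fold change is a lower bound where only its lower group holds such readings or an array below the limit. The fitted difference is a lower bound on its size where these readings could only widen it, and otherwise has no bound. Of the genes below, the difference is a lower bound for Aen, Polk, Fosl2, G6pc, Aqp4, Sdf2l1, Sesn2, Lcn2, Serpina1b, Scnn1a, Fkbp11 and Mcm2, and has no bound for Cdkn1a, Plk2, Cbr3, Rps25, Upp2, Bag3, Myc, Tnfrsf12a, Elovl3, Kynu, Trib3, Per1, Abcc4, Aqp2, Kcnj10, Atp6v1b1, Agps, Fam151a, Slc51a, Cd5l and Stab1. Differences are given with the SE and the Benjamini-Hochberg adjusted p from limma over all 9968 genes, with 3 arrays in each group. The sham livers were unequal: Mt1, a metallothionein, read 8.14, 9.58 and 13.26, Fkbp5, a glucocorticoid-induced chaperone, 8.27, 9.75 and 11.13, and Lcn2, a siderophore-binding protein, 11.46, 13.45 and 14.13. The differences of Mt1 (-2.64) and Fkbp5 (-0.37) did not pass. Residuals spread more in liver (median SD 0.314) than in kidney (0.188).

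The arrays carried the markers of their labelled tissue. The hepatocyte transcripts Ahsg, Fgb, F2, Ambp and Cps1 read 14.29 or more in every liver array and 2.87 or less in every kidney array. Fgb, F2 and Ambp were not among the planned markers. Of those that were, Apoa1 read 3.67 or less in every kidney array. However, Alb read 7.78 or more there, Ttr 14.90 or more and Cyp2e1 15.01 or more. The proximal tubule genes Slc34a1, Lrp2 and Cubn read 12.56 or more in every kidney and 2.76 or less in every liver. Neither list was absent as a whole from the other organ: 11 of the 21 proximal genes were above the limit in all 3 sham livers and 11 of the 18 plasma protein genes of hepatocytes in all 3 sham kidneys. Kap, an abundant transcript of the proximal tubule, read 7.34, 2.24 and 2.36 in the 24 h livers and 2.24, 3.09 and 2.39 in the sham livers, so 1 treated liver array held some of it. Without that array (24 h liver A) 3442 genes differed, against 3519 with it. The summed level of the 17 macrophage markers on the array was 13.45 to 14.04 in sham liver and 14.82 to 15.03 in 24 h liver, against 11.48 to 11.73 and 11.34 to 11.86 in kidney. For the 15 endothelial markers these ranges were 10.99 to 11.30 and 11.45 to 12.41 in liver, and 11.85 to 11.96 and 11.89 to 12.33 in kidney. The 18 hepatocyte plasma proteins summed to 19.54 to 19.56 in sham and 19.43 to 19.51 in 24 h liver. These markers moved with the liver results below, and their part in them was not tested. In whole-organ RNA, fewer cells of a type and less RNA per cell cannot be told apart.

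The liver responded at 24 h in a large share of the genes and the kidney in few. In the fit of all 18 arrays with limma and Benjamini-Hochberg adjustment, 4937 genes (49.5%) changed in liver, 2725 (27.3%) higher and 2212 (22.2%) lower. In kidney 244 genes (2.45%) changed, 118 (1.18%) higher and 126 (1.26%) lower. This fit gives both tissues 1 estimate of spread. With each tissue fitted on its own 9 arrays, an alternative added after the values were seen, kidney had 692 calls, 200 of them shared with the joint fit, and liver 3846, of which 3796 were shared. Of those 692 kidney calls 284 were higher and 408 lower. Kidney calls also depended on single arrays, at 51, 67, 79, 103 and 117 without sham kidney B, 24 h kidney B, sham kidney C, sham kidney A and 24 h kidney A, and 477 without 48 h liver C. The median response was 0.04 in liver and -0.00045 in kidney. The 10th and 90th percentiles were -1.17 and 1.33 in liver and -0.45 and 0.44 in kidney.

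The responses differed between the organs in 3519 of 9968 genes (35.3%). The liver's response lay above the kidney's in 1955 genes (19.6%) and the kidney's above the liver's in 1564 (15.7%), so 44.4% of the calls had the kidney above. The median difference of all genes was -0.06 with a median SE of 0.31. Centring each array on its 75th percentile moved that median to 0.05 and the share to 50.8%, so differences of that size have no fixed direction. The difference was at least 1 in 2630 of the called genes and at least 2 in 737. In 3161 of the 3519 genes liver alone had passed (1786 rose and 1375 fell), in 85 kidney alone (54 rose and 31 fell), in 48 both in opposite directions and in 22 both in the same direction. In the remaining 203 genes neither response passed on its own.

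**Figure D1:**
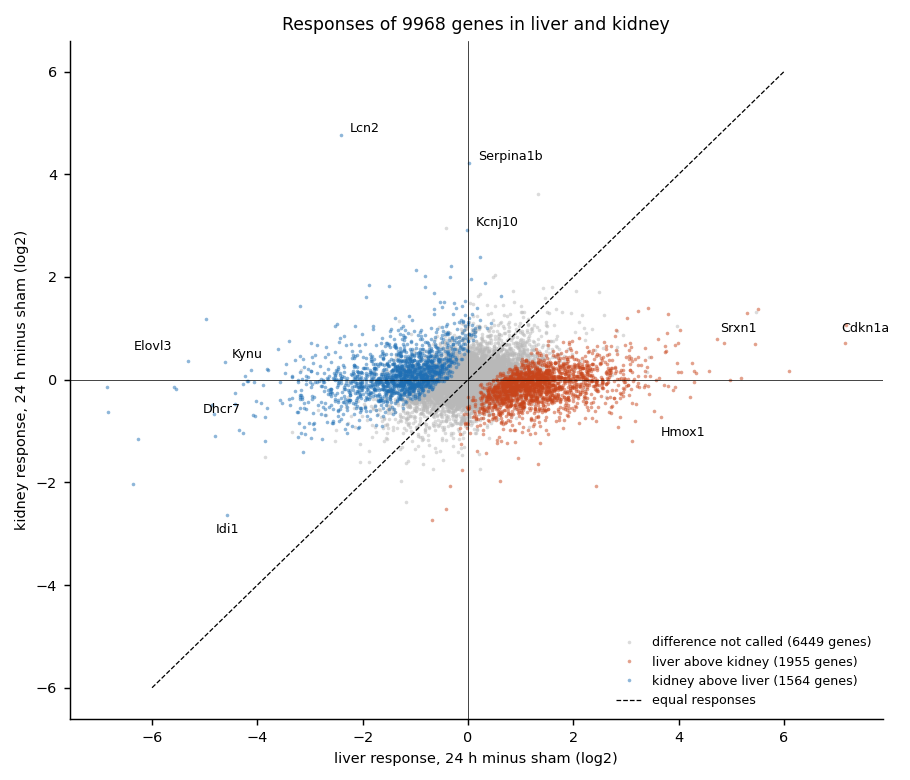
Response of each of 9968 genes in liver (x axis) and kidney (y axis), 24 h minus sham in log2 units, with points coloured by whether the limma test called the difference of the responses and a dashed line where both responses are equal. The cloud is wide along the liver axis and narrow along the kidney axis, and the called genes lie to the left and right of the line.

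For pathways, 39 gene lists with 784 entries were used, and 546 entries were tested. Of the 514 distinct genes in them, 206 had a called difference. The liver's response was higher over the list of p53 targets (median difference -2.08), ribosome biogenesis factors (-2.003), heat shock proteins (-1.06) and NRF2 targets (-0.68). It was lower over sterol synthesis (2.001), fatty acid synthesis (1.78), amino acid breakdown with the urea cycle (1.45), acute phase proteins (1.40) and gluconeogenesis (1.17). The median over all genes tested was -0.06. The counts of lists below stand against 27.3% of all genes that rose and 22.2% that fell in liver. In kidney 1.18% rose and 1.26% fell, and the difference had the liver above in 19.6% and the kidney above in 15.7%. In the kidney's own fit 284 of the 9968 genes rose and 408 fell, and list counts from that fit stand against these.

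**Figure D2:**
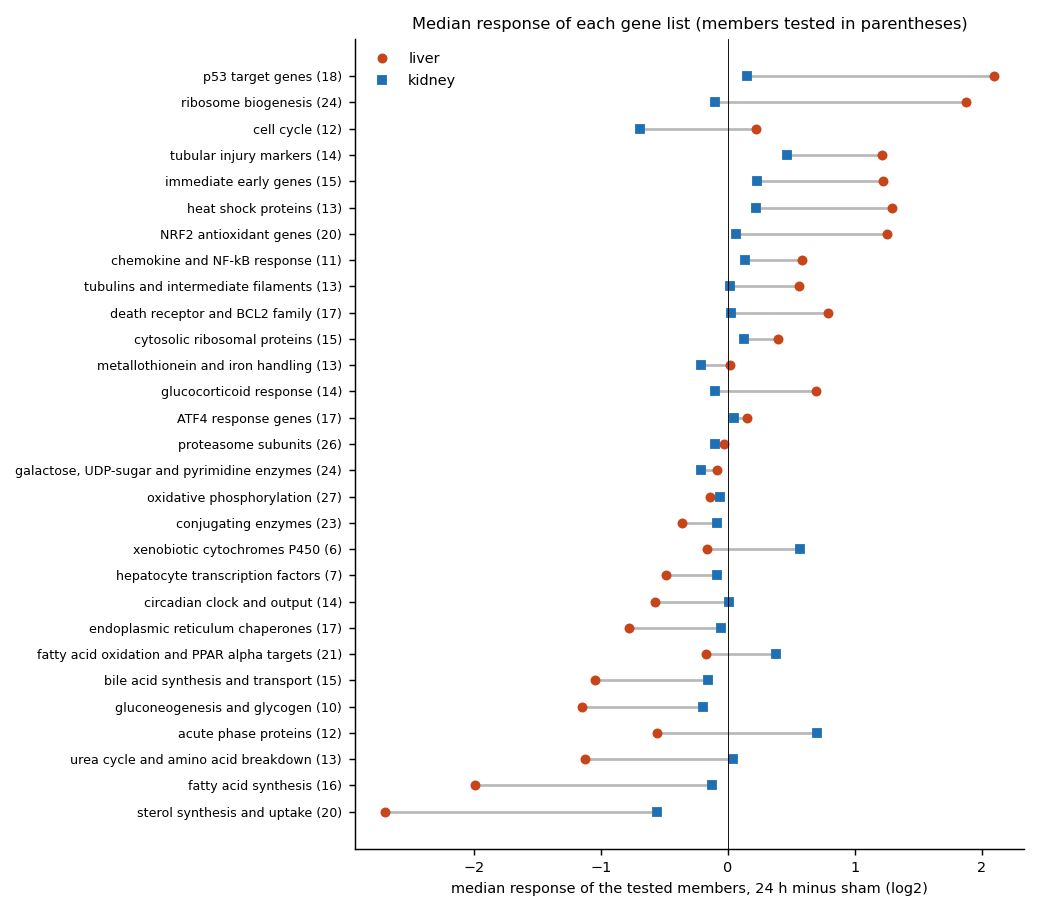
Median response of the tested members of each pathway list, 24 h minus sham in log2 units, in liver (circles) and kidney (squares), with the number of members tested in parentheses. The liver medians run from -2.70 for sterol synthesis to 2.09 for p53 targets, while the kidney medians run from -0.69 for the cell cycle to 0.70 for acute phase proteins.

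The promoters of 5 of these lists were searched for the site of a known regulator, over the 250 bases before and 50 after the transcription start (RefSeq, GRCm38.p6), on both strands. The core of the antioxidant response element bound by NRF2, TGACNNNGC, was in 6 of 16 NRF2 list members with a promoter sequence, against 17.2% of the 8153 tested genes that have one. The E-box CACGTG, bound by MYC, was in 4 of 19 ribosome biogenesis genes, against 12.1%. The CCAAT box, bound by NF-Y, was in 16 of 16 sterol genes and in 14 of 15 genes of endoplasmic reticulum chaperones, against 42.5%. The heat shock element core GAANNTTC was in 8 of 10 heat shock genes, against 6.91%. The endoplasmic reticulum stress element, CCAAT followed after 9 bases by CCACG, was in 7 of 15 chaperone genes, against 0.159%. Each such element also holds a CCAAT box. Of all 32851 promoters in the table, 12.4% held the antioxidant core, 7.15% the E-box, 37.4% CCAAT, 7.86% the heat shock core and 0.119% the stress element. A match is a description of the letters and no evidence of binding. For each list the member with the largest called difference among those with a match is shown, 5′ to 3′ on the gene's strand, with the match in capitals.
Srxn1, chr2:152105274-152105573, plus strand: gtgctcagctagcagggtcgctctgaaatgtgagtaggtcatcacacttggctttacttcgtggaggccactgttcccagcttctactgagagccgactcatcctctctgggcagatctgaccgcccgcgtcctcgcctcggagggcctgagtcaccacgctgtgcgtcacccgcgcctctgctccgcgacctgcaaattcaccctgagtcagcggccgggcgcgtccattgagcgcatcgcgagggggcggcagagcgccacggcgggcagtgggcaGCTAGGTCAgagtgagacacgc
Nop2, chr6:125131633-125131932, plus strand: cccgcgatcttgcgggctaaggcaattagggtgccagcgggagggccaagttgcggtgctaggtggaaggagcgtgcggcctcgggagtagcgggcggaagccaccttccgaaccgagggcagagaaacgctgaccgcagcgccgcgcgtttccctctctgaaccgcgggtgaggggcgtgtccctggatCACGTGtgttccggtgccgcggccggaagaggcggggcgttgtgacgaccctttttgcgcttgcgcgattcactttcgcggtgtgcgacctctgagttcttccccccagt
Dhcr7, chr7:143829964-143830263, plus strand: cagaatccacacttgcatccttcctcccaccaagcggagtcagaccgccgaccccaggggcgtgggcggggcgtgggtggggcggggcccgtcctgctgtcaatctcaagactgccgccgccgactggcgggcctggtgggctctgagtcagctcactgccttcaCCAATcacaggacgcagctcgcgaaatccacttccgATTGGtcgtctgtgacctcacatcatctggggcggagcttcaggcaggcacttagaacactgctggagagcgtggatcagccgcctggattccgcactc
Bag3, chr7:128523333-128523632, plus strand: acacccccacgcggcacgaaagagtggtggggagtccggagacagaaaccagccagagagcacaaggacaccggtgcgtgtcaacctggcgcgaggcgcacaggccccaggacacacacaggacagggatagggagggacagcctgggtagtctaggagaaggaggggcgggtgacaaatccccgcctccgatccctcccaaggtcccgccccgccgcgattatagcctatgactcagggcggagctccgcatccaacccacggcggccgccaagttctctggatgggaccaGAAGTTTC
Pdia6, chr12:17266339-17266638, plus strand: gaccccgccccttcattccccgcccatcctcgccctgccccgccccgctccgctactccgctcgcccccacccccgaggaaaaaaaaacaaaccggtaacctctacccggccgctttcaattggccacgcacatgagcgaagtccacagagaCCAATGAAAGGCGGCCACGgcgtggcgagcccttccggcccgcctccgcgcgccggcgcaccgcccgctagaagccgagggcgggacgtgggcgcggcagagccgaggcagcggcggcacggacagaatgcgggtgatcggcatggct
In Nop2, Dhcr7 and Pdia6 every match lies before the start, 60 bases in Nop2, 85 and 49 in Dhcr7 and 98 in Pdia6, counted to its first base. In Srxn1 and Bag3 it lies within the first 50 transcribed bases, and in Srxn1 it is read on the other strand.

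Of 18 tested p53 targets 14 rose in liver, 0 passed in kidney with the joint fit and 2 rose there with the kidney's own fit, and the liver's response lay above the kidney's in 12, against 19.6% of all genes, with the reverse in 0. Cdkn1a, the p21 inhibitor of cyclin-dependent kinases, read 6.12, 6.36 and 6.25 in the sham livers, 13.40, 13.37 and 13.44 in the 24 h livers, 6.38, 6.45 and 6.36 in the sham kidneys and 7.33, 7.23 and 6.78 in the 24 h kidneys. All treated livers stood far above every other array, and the treated kidneys lay above the sham kidneys by less than 1 on average. Its rise in liver was at least 143-fold, since its sham readings recur as background, and the difference was -6.44 ± 0.79 SE, adjusted p = 3.34e-05. Mdm2, the ubiquitin ligase that degrades p53, read 7.40, 7.29 and 7.30 in the sham livers, 10.72, 10.41 and 10.09 in the 24 h livers, 7.55, 7.78 and 7.77 in the sham kidneys and 7.79, 7.81 and 8.41 in the 24 h kidneys. It rose 8.45-fold in liver, while the treated kidneys lay just above the sham kidneys, a response of 0.30 that did not pass, and the difference was -2.78 ± 0.33 SE, adjusted p = 2.49e-05. Ccng1, cyclin G1, read 9.82, 9.73 and 9.56 in the sham livers, 12.66, 12.54 and 12.26 in the 24 h livers, 12.89, 12.72 and 12.69 in the sham kidneys and 12.89, 13.15 and 13.03 in the 24 h kidneys. The treated livers thus came close to the level that kidney held in both groups, and the difference was -2.53 ± 0.18 SE, adjusted p = 6.00e-07.

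Aen, a nuclease of apoptosis, rose at least 26.6-fold in liver with a kidney response of 0.79 (difference -3.94 ± 0.31 SE, adjusted p = 1.02e-06). Plk2, a polo-like kinase, rose at least 19.4-fold in liver and read at background in the sham groups of both tissues (difference -4.12 ± 0.28 SE, adjusted p = 4.23e-07). Polk, a DNA polymerase that bypasses lesions, rose at least 9.29-fold (difference -3.34 ± 0.28 SE, adjusted p = 1.27e-06). The members without a called difference were Fas, Btg2, Pmaip1, Bbc3, Ei24 and Perp. Of these, Perp had the interval -0.40 to 0.39 and Ei24 -0.54 to 0.30, so that differences above 1 lie outside both.

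The antioxidant genes of NRF2 rose in liver in 13 of 20 tested members and in kidney in 2 (4 rose and 2 fell with its own fit), and 11 differed with the liver's response above (0 with the reverse). Srxn1, sulfiredoxin, which repairs oxidised peroxiredoxins, read 8.97, 8.52 and 7.72 in the sham livers, 12.99, 13.15 and 13.64 in the 24 h livers, 8.95, 9.26 and 9.14 in the sham kidneys and 9.94, 9.69 and 9.84 in the 24 h kidneys. It rose 29-fold in liver, and its treated kidneys also lay above the sham kidneys, by 0.71, which passed only in the kidney's own fit (limma adjusted p = 0.0216). The difference was -4.15 ± 0.52 SE, adjusted p = 4.09e-05. Of the 4 tested probe sets of Srxn1, 3 were called with the liver above and 1 differed by 0.03, not called. The promoter of Srxn1, shown above, holds the antioxidant core. Txnrd1, thioredoxin reductase, read 10.89, 10.88 and 11.13 in the sham livers, 13.11, 13.08 and 13.11 in the 24 h livers, 11.21, 11.08 and 11.01 in the sham kidneys and 11.05, 11.38 and 11.29 in the 24 h kidneys, a difference of -1.999 ± 0.20 SE, adjusted p = 6.64e-06. Only its treated livers stood apart. Cbr3, which reduces carbonyls, rose at least 144-fold in liver from background, and its sham kidneys read at background too (difference -6.10 ± 0.73 SE, adjusted p = 2.81e-05).

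Hmox1, heme oxygenase, which degrades heme, moved apart in the organs: it read 7.17, 7.88 and 8.01 in the sham livers, 11.58, 11.06 and 11.42 in the 24 h livers, 8.88, 9.33 and 9.35 in the sham kidneys and 8.16, 8.81 and 8.38 in the 24 h kidneys. It rose 12.7-fold in liver, and the treated kidneys all lay below the sham kidneys, a response of -0.74 that did not pass (difference -4.40 ± 0.49 SE, adjusted p = 1.66e-05). Nqo1, a quinone reductase, read 5.61, 6.44 and 5.36 in the sham livers, 8.18, 8.31 and 7.995 in the 24 h livers, 10.10, 10.13 and 9.94 in the sham kidneys and 10.42, 10.34 and 10.32 in the 24 h kidneys. All kidneys were higher than the treated livers, and the response of kidney was 0.31 against 2.36 in liver (difference -2.05 ± 0.35 SE, adjusted p = 4.08e-04). The list was not uniform. Cbr1, another carbonyl reductase, and Ephx1, microsomal epoxide hydrolase, rose in both organs, Cbr1 by 1.45 in liver and 1.58 in kidney and Ephx1 by 1.47 and 1.06. Fth1, the ferritin heavy chain, differed by only -0.32, a call lost when arrays were centred on the 75th percentile.

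Of 24 tested factors of ribosome biogenesis 23 rose in liver and 0 passed in kidney with the joint fit (2 fell with its own fit), and 20 differed, all with the liver's response above. Their median response was 1.87 in liver and -0.10 in kidney. Nop56, a core protein of the box C/D particles that guide RNA methylation, read 8.24, 7.91 and 7.83 in the sham livers, 10.56, 10.36 and 10.45 in the 24 h livers, 7.71, 7.73 and 7.65 in the sham kidneys and 7.71, 7.29 and 7.42 in the 24 h kidneys. The treated livers lay above every other array, and the kidney groups overlapped (difference -2.69 ± 0.23 SE, adjusted p = 1.50e-06). Nop2, a ribosomal RNA methyltransferase, read 7.65, 7.70 and 7.77 in the sham livers, 10.02, 9.99 and 10.14 in the 24 h livers, 7.39, 7.53 and 7.70 in the sham kidneys and 7.57, 7.59 and 7.41 in the 24 h kidneys, with a difference of -2.36 ± 0.20 SE, adjusted p = 1.62e-06. Its promoter, shown above, holds an E-box. Nip7, which acts in maturation of the large subunit, differed by -2.70 ± 0.29 SE, adjusted p = 1.02e-05. Ccdc86, a nucleolar protein outside the list, read 7.38, 7.97 and 7.66 in the sham livers, 12.07, 11.91 and 11.92 in the 24 h livers, 7.26, 7.28 and 7.17 in the sham kidneys and 6.94, 7.29 and 7.34 in the 24 h kidneys, with a difference of -4.35 ± 0.38 SE, adjusted p = 2.06e-06. Its kidney groups overlapped.

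The proteins of the ribosome itself moved little. Of 15 tested ribosomal protein genes 11 rose in liver, and the median response of the list was 0.39 in liver against 0.13 in kidney. The 75th percentiles of the arrays were also higher in treated liver, at 6.53 to 6.67 in sham and 6.76 to 6.79 at 24 h. Their part in liver rises of this size was not tested. Only Rpl7 differed (-0.44 ± 0.11 SE, adjusted p = 0.00618), a call lost with 75th percentile centring. Rplp0, which the study's design names as a reference gene, read 14.84, 14.72 and 14.70 in the sham livers, 15.21, 15.04 and 15.18 in the 24 h livers, 14.97, 14.88 and 14.70 in the sham kidneys and 15.03, 15.02 and 15.02 in the 24 h kidneys. It rose by 0.39 in liver, and its difference of -0.22 did not pass (interval -0.46 to 0.02). The set named for Rps25 differed by -4.55, but it read between 2.97 and 3.67 in every sham and kidney array, near the lowest value of the table.

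Among the enzymes of galactose, UDP-sugar and pyrimidine metabolism, the pathway through which GalN acts, 8 of 24 tested members differed with the liver's response above and 7 with the kidney's. Of all genes 19.6% and 15.7% did so. Those with the liver above included enzymes that make or salvage pyrimidine nucleotides. Ctps, CTP synthase, read 5.93, 5.97 and 6.05 in the sham livers, 8.79, 8.81 and 9.05 in the 24 h livers, 8.49, 8.17 and 8.12 in the sham kidneys and 7.92, 7.90 and 8.14 in the 24 h kidneys. It rose 7.45-fold in liver, from below the kidneys to above them (difference -3.17 ± 0.30 SE, adjusted p = 4.55e-06). Cad, which starts pyrimidine synthesis, rose at least 6.27-fold in liver from background, and Uck2, a uridine kinase, rose by 1.94 against -0.20 in kidney. Of those with the kidney above, 6 of 7 fell in liver and the other, the uridine kinase homologue Uckl1, rose in kidney by 1.53. Galt, the uridylyltransferase of galactose use, read 10.82, 10.78 and 10.21 in the sham livers, 9.20, 8.86 and 8.72 in the 24 h livers, 9.68, 9.53 and 9.37 in the sham kidneys and 9.74, 10.07 and 9.72 in the 24 h kidneys, a difference of 2.000 ± 0.23 SE, adjusted p = 2.33e-05. Gne, the first enzyme of sialic acid synthesis, fell 9.13-fold in liver (difference 3.33 ± 0.42 SE, adjusted p = 4.06e-05), while its other probe set differed by 0.95, not called. Upp2, a uridine phosphorylase, read 14.43, 14.39 and 14.57 in the sham livers, 7.10, 9.65 and 7.58 in the 24 h livers, 7.72, 7.53 and 7.48 in the sham kidneys and 3.99, 6.32 and 6.32 in the 24 h kidneys. It fell 81.8-fold in liver, and all treated kidneys also lay below the sham kidneys, a response of -2.04 that did not pass (difference 4.32 ± 1.21 SE, adjusted p = 0.0122). Ugp2, which makes UDP-glucose, differed by 0.21 with an interval of -0.08 to 0.51, not called, though 2 of its 5 probe sets were called, at differences up to 0.87.

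Of 13 heat shock genes 10 rose and 1 fell in liver, 0 passed in kidney, and 4 differed, all with the liver above, against 19.6% of all genes. The kidney response of Hspb1 was 1.34 and did not pass. Bag3, a co-chaperone, read 8.09, 8.09 and 7.98 in the sham livers, 9.63, 10.70 and 10.62 in the 24 h livers, 8.07, 8.09 and 8.09 in the sham kidneys and 8.78, 8.13 and 8.21 in the 24 h kidneys. It rose at least 4.8-fold in liver from readings that recur as background, with 1 treated kidney at 8.78 and the others near sham (difference -1.97 ± 0.38 SE, adjusted p = 0.00114). Hsp90aa1, the inducible cytosolic HSP90, read 13.30, 13.23 and 12.94 in the sham livers, 14.42, 14.91 and 15.10 in the 24 h livers, 14.21, 14.16 and 14.04 in the sham kidneys and 13.90, 13.86 and 14.16 in the 24 h kidneys, so the kidneys lay between the sham and the treated livers (difference -1.82 ± 0.46 SE, adjusted p = 0.00715). The near-identical copies Hspa1a and Hspa1b, whose probes may not tell them apart, rose in liver by 3.96 and 1.79, calls that were lost in the liver's own fit (limma adjusted p = 0.0613 and 0.0903), and their differences did not pass. Of 15 immediate early genes 6 rose and 1 fell in liver. The liver lay above in 3, a share near the 19.6% of all genes: Klf6 (-3.34 ± 0.47 SE, adjusted p = 9.58e-05), Fosl2 (-2.95) and Jun (-2.14). The other probe set of Fosl2 differed by 0.26, not called. For Myc the difference of -2.19 missed the threshold (limma adjusted p = 0.0716), with sham livers at 4.83, 4.96 and 6.64.

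Of 14 tested markers of tubular injury, 9 rose in liver and 3 in kidney. The difference was called with the liver above in 6 and with the kidney above in 1, Lcn2. Tnfrsf12a, the TWEAK receptor, rose in both organs: it read 4.90, 5.25 and 5.30 in the sham livers, 10.27, 10.31 and 11.39 in the 24 h livers, 6.54, 6.32 and 6.32 in the sham kidneys and 7.83, 7.93 and 7.56 in the 24 h kidneys. The groups did not overlap in either tissue, with a rise of 45.5-fold in liver and at least 2.6-fold in kidney (difference -4.13 ± 0.35 SE, adjusted p = 1.71e-06). Lgals3, galectin-3, rose by 3.80 in liver against 1.28 in kidney, and Krt18, a keratin, rose in kidney by 1.72. Havcr1, the kidney injury molecule KIM-1, read 3.11 or less in all 12 arrays and was not tested. Atf3, an early transcription factor, and Saa1, an acute phase protein, did not pass the limit in both organs and were not tested either. Of 11 genes of chemokines and NF-kB signalling 3 differed, against 35.3% of all genes, so the list does not stand out by its count. Among them was Icam1, a leukocyte adhesion molecule, which read 5.02, 5.15 and 4.82 in the sham livers, 9.04, 8.73 and 8.45 in the 24 h livers, 7.46, 7.03 and 6.91 in the sham kidneys and 7.79, 7.58 and 7.62 in the 24 h kidneys (difference -3.21 ± 0.38 SE, adjusted p = 2.54e-05). Its treated livers stood above all kidneys. The summed macrophage and endothelial markers were also higher in those livers, and their part in this result was not tested.

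**Figure D3:**
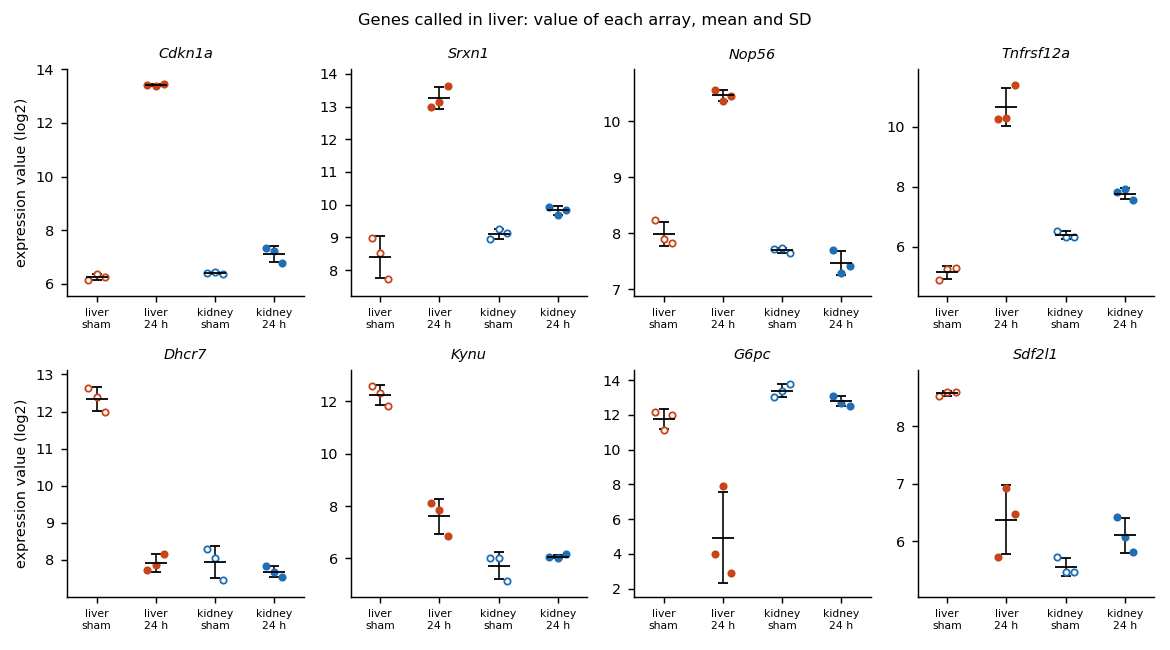
Expression value (log2) of 8 genes in each of the 12 arrays, open circles for sham and filled circles for 24 h, with the mean and SD of 3 arrays. Cdkn1a, Srxn1, Nop56 and Tnfrsf12a are higher and Dhcr7, Kynu, G6pc and Sdf2l1 lower in all 3 treated livers than in any sham liver, and the kidney groups lie closer together.

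Of 20 tested genes of sterol synthesis and uptake 17 fell in liver, 3 fell in kidney (5 with its own fit), and 15 differed, all with the kidney above (15.7% of all genes). The medians were -2.70 in liver and -0.56 in kidney, and 19 of 20 differences were above 0. Dhcr7, the last enzyme of cholesterol synthesis, read 12.63, 12.38 and 11.99 in the sham livers, 7.71, 7.85 and 8.16 in the 24 h livers, 8.29, 8.05 and 7.46 in the sham kidneys and 7.84, 7.67 and 7.53 in the 24 h kidneys. Treated livers came down to the kidney level, 21.5-fold below sham, and the kidney groups overlapped (difference 4.17 ± 0.43 SE, adjusted p = 8.39e-06). Hmgcs1, which makes the precursor of mevalonate, read 14.87, 14.46 and 13.73 in the sham livers, 11.18, 11.29 and 11.23 in the 24 h livers, 14.91, 14.78 and 14.92 in the sham kidneys and 14.44, 14.04 and 14.47 in the 24 h kidneys. It started at a similar level in both organs and fell 8.69-fold in liver, while the treated kidneys lay below sham with a response of -0.56 that did not pass (difference 2.56 ± 0.42 SE, adjusted p = 3.08e-04).

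The kidney calls were Idi1, Insig1 and Sc5d. Idi1, isopentenyl-diphosphate isomerase, fell 24-fold in liver and 6.25-fold in kidney (difference 1.94 ± 0.61 SE, adjusted p = 0.0221). Insig1, which retains the SREBP activator in the endoplasmic reticulum, read 13.37, 13.04 and 12.60 in the sham livers, 10.09, 9.54 and 9.86 in the 24 h livers, 10.70, 10.35 and 9.84 in the sham kidneys and 9.25, 9.42 and 9.09 in the 24 h kidneys. Groups were apart in both organs, with a fall of 9.02-fold in liver and 2.06-fold in kidney (difference 2.13 ± 0.35 SE, adjusted p = 3.36e-04). Sc5d, a sterol desaturase, fell 6.38-fold and 1.77-fold (difference 1.84 ± 0.27 SE, adjusted p = 1.19e-04). Stard4, a sterol carrier, differed by 2.64 ± 0.36 SE, adjusted p = 6.99e-05.

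Of 16 tested genes of fatty acid synthesis 11 fell in liver, 0 in kidney with the joint fit and 1 with its own fit, and 10 differed, all with the kidney above. Elovl5, an elongase of polyunsaturated fatty acids, read 13.70, 13.63 and 13.57 in the sham livers, 11.07, 11.11 and 11.33 in the 24 h livers, 10.64, 10.38 and 10.41 in the sham kidneys and 10.66, 10.07 and 10.46 in the 24 h kidneys (difference 2.39 ± 0.20 SE, adjusted p = 1.23e-06). Srebf1, the transcription factor SREBP1, had a response of -3.47 in liver, a called fall, against 0.30 in kidney (difference 3.77 ± 0.74 SE, adjusted p = 0.00122). Acss2, acetyl-CoA synthetase, read 13.57, 13.01 and 12.41 in the sham livers, 10.68, 9.09 and 8.60 in the 24 h livers, 13.11, 12.79 and 12.71 in the sham kidneys and 12.15, 12.64 and 12.45 in the 24 h kidneys, so a high level was kept in kidney (difference 3.08 ± 0.57 SE, adjusted p = 8.06e-04). Scd1, stearoyl-CoA desaturase, did not differ past the threshold (-0.45, interval -3.58 to 2.68).

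Enzymes of fatty acid oxidation split. Of 21 tested, 8 differed with the kidney above and 2, Acot1 and Acot2, with the liver above. These thioesterases are near-identical copies whose probes may not tell them apart. Eci1, an isomerase of beta-oxidation, read 11.79, 11.96 and 11.64 in the sham livers, 11.74, 11.04 and 10.67 in the 24 h livers, 10.70, 10.45 and 10.83 in the sham kidneys and 11.77, 12.08 and 11.99 in the 24 h kidneys. It rose 2.44-fold in kidney with no overlap of the groups, and fell 1.56-fold in liver, a fall that did not pass in the liver's own fit (limma adjusted p = 0.103). Its difference was 1.93 ± 0.31 SE, adjusted p = 3.08e-04. Cpt1a, which admits fatty acids to mitochondria, fell 3.95-fold in liver (difference 1.86 ± 0.42 SE, adjusted p = 0.0032). Cyp4a14, a target of PPAR alpha, had responses of 1.32 in liver and 3.62 in kidney, which did not pass in the joint fit. The kidney's own fit called its rise (limma adjusted p = 0.0195), and the difference was 2.31, with an interval of -1.15 to 5.76. Of other lipid enzymes, Elovl3, an elongase of very long fatty acids that is high in male liver, read 12.58, 12.50 and 12.07 in the sham livers and 4.10, 8.69 and 8.41 in the 24 h livers. Treated liver A stood far below the other treated livers. The group means gave a fall of 39.8-fold and a difference of 5.69 ± 1.18 SE, adjusted p = 0.00185, which was 4.20 without that array, and the kidney readings were background. The peroxisomal enzymes Nudt7, which cleaves coenzyme A, and Hacl1, a lyase of branched fatty acids, differed by 4.29 ± 0.45 SE, adjusted p = 9.90e-06 and 4.19 ± 0.54 SE, adjusted p = 4.92e-05. Hacl1 read 11.73, 11.60 and 11.39 in the sham livers, 8.86, 8.39 and 6.66 in the 24 h livers, 8.995, 9.15 and 8.90 in the sham kidneys and 9.66, 9.73 and 9.44 in the 24 h kidneys, lower in every treated liver and higher in every treated kidney.

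Glucose production is a task of both organs. Of 10 tested genes of gluconeogenesis and glycogen 10 fell in liver and 1, Slc2a2, in kidney, and 8 differed, all with the kidney above. G6pc, which encodes the glucose-6-phosphatase enzyme, read 12.18, 11.14 and 11.999 in the sham livers, 3.99, 7.91 and 2.92 in the 24 h livers, 13.03, 13.38 and 13.80 in the sham kidneys and 13.09, 12.71 and 12.52 in the 24 h kidneys. Treated livers were widely spread and all below sham, with group means apart by at least 114-fold, while kidney kept a level above that of sham liver (difference 6.21 ± 1.22 SE, adjusted p = 0.00125). Leaving out 1 treated liver moved the difference to between 5.20 and 7.69. Pck1, phosphoenolpyruvate carboxykinase, read 15.51, 15.70 and 15.81 in the sham livers, 12.60, 14.82 and 14.28 in the 24 h livers, 16.18, 15.95 and 16.02 in the sham kidneys and 16.03, 15.89 and 15.99 in the 24 h kidneys. It fell 3.42-fold in liver, and the kidney groups overlapped near 16 (difference 1.69 ± 0.51 SE, adjusted p = 0.0192). Pcx, pyruvate carboxylase, differed by 1.07 ± 0.19 SE, adjusted p = 5.50e-04. Slc2a2, the glucose transporter of both cell types, read 13.40, 13.55 and 13.41 in the sham livers, 11.79, 11.34 and 11.61 in the 24 h livers, 12.61, 12.97 and 12.90 in the sham kidneys and 12.55, 11.95 and 12.15 in the 24 h kidneys. It fell 3.65-fold in liver and 1.52-fold in kidney (difference 1.26 ± 0.20 SE, adjusted p = 3.00e-04), and its kidney call was lost in the kidney's own fit (limma adjusted p = 0.0595).

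Of 13 tested enzymes that break down amino acids or make urea 11 fell in liver, 0 fell and 1 rose in kidney, and 9 differed, all with the kidney above. Kynu, kynureninase of tryptophan breakdown, fell 24.6-fold in liver, with kidney readings at background (difference 4.97 ± 0.43 SE, adjusted p = 1.72e-06). Got1, cytosolic aspartate aminotransferase, read 13.90, 14.14 and 13.79 in the sham livers, 11.64, 11.21 and 11.42 in the 24 h livers, 11.65, 11.72 and 11.24 in the sham kidneys and 11.75, 11.30 and 11.53 in the 24 h kidneys. Treated livers came down to the kidney level, and the kidney groups overlapped (difference 2.51 ± 0.22 SE, adjusted p = 1.72e-06). Oat, ornithine aminotransferase, differed by 1.99 ± 0.29 SE, adjusted p = 1.21e-04 and Fah, the last enzyme of tyrosine breakdown, by 1.45 ± 0.32 SE, adjusted p = 0.00264. The gene that rose in kidney was Hpd, an earlier enzyme of tyrosine breakdown, by 1.40 against -0.23 in liver, a kidney call lost in its own fit (limma adjusted p = 0.101).

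Further large differences with the kidney above were falls in liver. Nrep read 12.04, 11.94 and 13.06 in the sham livers, 6.67, 6.68 and 6.93 in the 24 h livers, 7.74, 7.25 and 7.60 in the sham kidneys and 7.18, 7.72 and 7.27 in the 24 h kidneys, and Pgap1, which remodels the GPI anchor of membrane proteins, read 9.07, 9.41 and 10.18 in the sham livers, 4.10, 3.62 and 4.29 in the 24 h livers, 7.98, 8.28 and 7.88 in the sham kidneys and 7.71, 7.71 and 8.18 in the 24 h kidneys. The kidney groups of both overlapped, while liver fell 48-fold and 46.9-fold (differences 5.45 ± 0.45 SE, adjusted p = 1.23e-06 and 5.37 ± 0.40 SE, adjusted p = 6.00e-07). Hsd3b5, a steroid dehydrogenase of male liver, fell 116-fold in liver with kidney at background. Aqp4, a water channel, read 6.64, 7.29 and 7.68 in the sham livers, 2.21, 2.21 and 2.24 in the 24 h livers, 8.44, 8.48 and 7.58 in the sham kidneys and 10.53, 9.01 and 8.49 in the 24 h kidneys. It reached the floor in every treated liver, at least 31.6-fold below sham, and had a kidney response of 1.18, which did not pass (difference 6.16 ± 0.82 SE, adjusted p = 6.38e-05). Among the large differences with the liver above and no list were Epm2aip1, which binds laforin, and Chka, choline kinase. Epm2aip1 read 4.98, 4.36 and 5.16 in the sham livers, 10.86, 10.85 and 11.05 in the 24 h livers, 7.35, 7.33 and 7.20 in the sham kidneys and 7.65, 7.34 and 7.38 in the 24 h kidneys, a rise of 68.1-fold in liver (difference -5.92 ± 0.70 SE, adjusted p = 2.63e-05). Chka rose 43.6-fold (difference -4.75 ± 0.56 SE, adjusted p = 2.55e-05). Cdt1, which licenses DNA replication, rose 8.63-fold in liver, and its sham kidneys were themselves unequal at 7.86, 7.81 and 5.58 (difference -4.31 ± 0.67 SE, adjusted p = 2.16e-04).

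Of 17 tested chaperones of the endoplasmic reticulum 10 fell and 2 rose in liver, 0 passed in kidney, and 7 differed with the kidney above and 1, Dnajb9, with the liver above. Sdf2l1, a cofactor of protein folding, read 8.53, 8.59 and 8.60 in the sham livers, 5.73, 6.92 and 6.47 in the 24 h livers, 5.73, 5.47 and 5.46 in the sham kidneys and 6.42, 6.07 and 5.82 in the 24 h kidneys. It fell at least 4.6-fold in liver, and every treated kidney lay above the sham kidneys (difference 2.75 ± 0.35 SE, adjusted p = 4.09e-05). Calr, calreticulin, read 14.66, 14.69 and 14.79 in the sham livers, 13.57, 13.86 and 13.97 in the 24 h livers, 14.27, 14.07 and 14.27 in the sham kidneys and 14.44, 14.11 and 14.18 in the 24 h kidneys (difference 0.95 ± 0.19 SE, adjusted p = 0.00158). Pdia6, a disulfide isomerase whose promoter with the stress element is shown above, had responses of -1.06 in liver and 0.50 in kidney (difference 1.56 ± 0.38 SE, adjusted p = 0.00497). Hspa5, the chaperone BiP, did not differ past the threshold (-0.90, interval -1.91 to 0.10).

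Among 17 tested ATF4 response genes, 2 differed in each direction, against 19.6% of all genes with the liver above and 15.7% with the kidney above. Asns, asparagine synthetase, read 8.22, 9.91 and 8.88 in the sham livers, 7.72, 8.24 and 8.57 in the 24 h livers, 6.29, 6.65 and 6.75 in the sham kidneys and 8.04, 8.81 and 8.23 in the 24 h kidneys. It rose 3.48-fold in kidney with no overlap, while the liver groups overlapped (difference 2.62 ± 0.52 SE, adjusted p = 0.00129). Trib3, a pseudokinase, fell 2.85-fold in liver (difference 2.21). Slc3a2, the heavy chain of amino acid transporters, rose 5.93-fold in liver (difference -2.73 ± 0.74 SE, adjusted p = 0.00997), and Sesn2, sestrin 2, which is also a p53 target, rose at least 3.05-fold (difference -1.56). Atf4 itself fell 2.66-fold in kidney with no overlap of the groups. Its response was -1.41 there against -0.61 in liver, and the difference did not pass (interval -1.56 to -0.05).

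**Figure D4:**
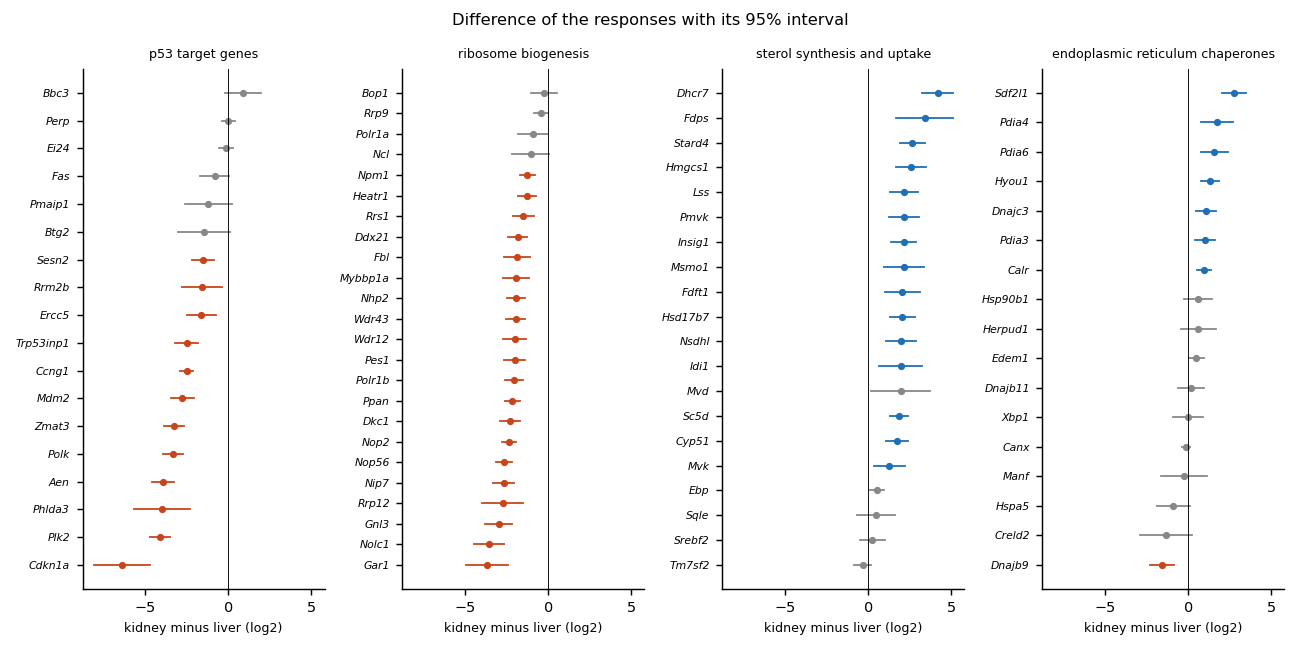
Difference of the responses (kidney minus liver, log2) of each tested member of 4 lists, with its 95% interval, coloured where the limma test called it. The called members of p53 targets and ribosome biogenesis all lie below 0 and those of sterol synthesis all above, and 7 of the 8 called chaperones of the endoplasmic reticulum lie above 0, with Dnajb9 below.

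Of 14 tested clock genes 3 differed, all with the kidney above, against 15.7% of all genes, so the list does not stand out by its count. Dbp, an output transcription factor of the clock, read 12.81, 13.32 and 13.27 in the sham livers, 9.51, 10.17 and 10.01 in the 24 h livers, 11.85, 12.18 and 12.08 in the sham kidneys and 11.02, 11.68 and 11.55 in the 24 h kidneys. It fell 9.43-fold in liver, and every treated kidney lay below the sham kidneys by less (difference 2.62 ± 0.30 SE, adjusted p = 1.96e-05). The others were Bhlhe40 (1.45) and Cry2 (1.21), 2 transcriptional repressors of the clock. The liver's fall in Cry2 was lost in its own fit (limma adjusted p = 0.0562). Per1, a core clock repressor, differed by 0.01 and did not pass. Of 15 tested genes that make or carry bile acids 5 differed with the kidney above and 3 with the liver above, beside 15.7% and 19.6% of all genes. Nr0b2, the repressor SHP, read 10.21, 10.13 and 9.90 in the sham livers, 6.94, 9.14 and 8.78 in the 24 h livers, 4.82, 4.84 and 4.56 in the sham kidneys and 5.04, 5.17 and 5.19 in the 24 h kidneys (difference 2.18 ± 0.58 SE, adjusted p = 0.00901). Abcc4, an export pump, rose in liver by 2.69 from readings at background, and kidney held near 10 in both groups (difference -2.57 ± 0.52 SE, adjusted p = 0.00154). Beside the same shares of all genes, 8 of 23 conjugating enzymes differed with the kidney above, such as the UDP-glycosyltransferase Ugt3a1 (2.35 ± 0.31 SE, adjusted p = 6.21e-05), and 2 with the liver above. Ugt2b5, from a family of near-identical copies, was 1 of those with the liver above, at 5.88, 5.33 and 5.87 in the sham kidneys and 2.92, 3.02 and 2.92 in the 24 h kidneys.

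Of 12 tested acute phase genes 3 rose in kidney, against 1.18% of all genes, and 5 fell in liver, and 6 differed, all with the kidney above. With the kidney's own fit 2 of 12 rose, against 284 of all 9968 genes. Lcn2, the siderophore binder NGAL, read 11.46, 13.45 and 14.13 in the sham livers, 8.72, 11.29 and 11.79 in the 24 h livers, 4.62, 4.46 and 2.70 in the sham kidneys and 8.77, 9.39 and 7.90 in the 24 h kidneys. Every treated kidney stood above every sham kidney, a rise of at least 27.1-fold, and the liver groups overlapped at 11.46 to 11.79. The liver's fall of 5.33-fold passed in the joint fit and not in the liver's own fit (limma adjusted p = 0.0808). The difference was 7.17 ± 1.21 SE, adjusted p = 4.13e-04. Fgg, the gamma chain of fibrinogen, read 15.55, 15.71 and 15.77 in the sham livers, 15.17, 15.26 and 15.22 in the 24 h livers, 8.40, 8.27 and 8.03 in the sham kidneys and 9.65, 9.71 and 9.89 in the 24 h kidneys. It rose 2.86-fold in kidney and fell 1.38-fold in liver with no overlap in either (difference 1.98 ± 0.15 SE, adjusted p = 6.00e-07). Cp, ceruloplasmin, which oxidises iron, rose 1.89-fold in kidney (difference 1.53 ± 0.30 SE, adjusted p = 0.00128), a kidney call lost in its own fit (limma adjusted p = 0.0565).

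Kidney also gained a transcript that the liver makes in abundance. Serpina1b, an alpha-1-antitrypsin gene with near-identical copies that its probes may also detect, read 15.70, 15.66 and 15.66 in the sham livers, 15.68, 15.63 and 15.76 in the 24 h livers, 4.11, 4.06 and 4.06 in the sham kidneys and 8.02, 8.60 and 8.25 in the 24 h kidneys. The liver groups overlapped, and kidney rose at least 18.6-fold from background (difference 4.19 ± 0.16 SE, adjusted p = 1.97e-09). It was the only one of 13 tested plasma protein genes of hepatocytes that rose in kidney, and Fgg was counted with the acute phase. Alb, albumin, read 8.08, 8.44 and 8.18 in the sham kidneys and 8.32, 8.20 and 7.78 in the 24 h kidneys, a response of -0.13 that did not pass, and Ahsg, Fgb, F2, Ambp and Cps1 stayed at 2.87 or less in every kidney array. Apoh, apolipoprotein H, read 8.52, 8.50 and 8.53 in the sham kidneys and 8.88, 9.71 and 9.63 in the 24 h kidneys, a response of 0.89 that did not pass.

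Of 7 tested genes of the distal nephron 3 rose in kidney, against 1.18% of all genes, and 5 differed, all with the kidney above. With the kidney's own fit 5 of 7 rose, against 284 of all 9968 genes. The other 12 of the 19 on the array did not pass the limit in liver. The liver readings of Aqp2, Kcnj10 and Atp6v1b1 recur as background, so their differences hold no measured liver response. Aqp2, the vasopressin-regulated water channel of the collecting duct, read 8.61, 8.53 and 8.12 in the sham kidneys and 12.10, 10.22 and 10.08 in the 24 h kidneys. Treated kidney A stood above the other treated kidneys, and all 3 stood above sham, a rise of 5.2-fold (difference 2.16 ± 0.66 SE, adjusted p = 0.0205). The call of the difference was lost with 1 weight per tissue. Kcnj10, a basolateral potassium channel, read 6.50, 5.34 and 5.28 in the sham kidneys and 8.80, 8.60 and 8.48 in the 24 h kidneys, with liver at background in both groups (difference 2.95 ± 0.34 SE, adjusted p = 2.28e-05). Atp6v1b1, a proton pump subunit of intercalated cells, read 6.41, 6.16 and 6.15 in the sham kidneys and 7.46, 7.43 and 7.43 in the 24 h kidneys (difference 1.19 ± 0.20 SE, adjusted p = 3.58e-04). Scnn1a, the alpha subunit of the epithelial sodium channel, read 6.70, 6.85 and 6.65 in the sham livers, 4.61, 4.61 and 5.59 in the 24 h livers, 8.33, 8.65 and 8.89 in the sham kidneys and 9.92, 9.58 and 9.51 in the 24 h kidneys. It fell at least 3.47-fold in liver, and every treated kidney lay above the sham kidneys, a response of 1.05 that passed only in the kidney's own fit (limma adjusted p = 0.02). Its difference was 2.84 ± 0.43 SE, adjusted p = 1.60e-04. The summed level of the 19 distal genes was 16.57 to 16.72 in sham and 16.60 to 16.85 in treated kidney; these ranges overlap.

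Of all genes 49.5% passed in liver and 2.45% in kidney. In 48 genes both organs passed with opposite signs and a called difference, 25 higher in liver and lower in kidney and 23 the reverse. Thus 25 of the 126 genes that fell in kidney rose in liver, against 27.3% of all genes. Of the 118 that rose in kidney 23 fell in liver, against 22.2% of all genes, so neither count stands out. The count of opposite calls was 96 with each tissue's own fit. It was 5, 10, 12, 18 and 21 without sham kidney B, 24 h kidney B, sham kidney C, 24 h kidney A and sham kidney A, and 97 without 48 h liver C. The genes with the largest differences that rose in liver and fell in kidney were Tasor2, Btnl9, Stam, Utp23, Mtrex and Utp20. Utp23, of the small subunit processome, read 7.38, 7.43 and 7.64 in the sham livers, 8.84, 8.80 and 8.91 in the 24 h livers, 6.23, 6.71 and 6.60 in the sham kidneys and 5.41, 5.19 and 5.22 in the 24 h kidneys (difference -2.61 ± 0.31 SE, adjusted p = 2.48e-05). Utp20, of the same particle, read 7.23, 7.09 and 7.07 in the sham livers, 8.51, 8.49 and 8.49 in the 24 h livers, 9.11, 9.53 and 9.59 in the sham kidneys and 8.67, 8.35 and 8.48 in the 24 h kidneys (difference -2.27 ± 0.26 SE, adjusted p = 1.90e-05). The groups were apart in both organs for both genes. Mtrex, the helicase of the nuclear exosome, rose 3.31-fold in liver and fell 1.72-fold in kidney (difference -2.51 ± 0.25 SE, adjusted p = 6.64e-06). Tasor2, a homologue of a silencing-complex subunit, read 6.76, 6.75 and 7.40 in the sham livers, 9.68, 10.07 and 9.70 in the 24 h livers, 8.18, 8.03 and 8.21 in the sham kidneys and 7.13, 7.38 and 7.17 in the 24 h kidneys, crossing from below kidney to above it (difference -3.76 ± 0.28 SE, adjusted p = 6.00e-07). Stam, an endosomal sorting adaptor, and Btnl9, a butyrophilin-like protein, differed by -2.76 ± 0.28 SE, adjusted p = 6.64e-06 and -2.96 ± 0.50 SE, adjusted p = 4.30e-04.

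Besides Lcn2, the genes with the largest differences that fell in liver and rose in kidney follow. Fkbp11, a prolyl isomerase of the secretory pathway, read 8.49, 7.53 and 7.62 in the sham livers, 4.54, 4.73 and 4.78 in the 24 h livers, 3.48, 3.11 and 3.25 in the sham kidneys and 4.72, 4.78 and 4.65 in the 24 h kidneys. Liver and kidney met at the same level (difference 4.63 ± 0.40 SE, adjusted p = 1.78e-06), although the second probe set of this gene differed by only 0.15. Dio1, the deiodinase that activates thyroid hormone, read 12.61, 12.61 and 13.15 in the sham livers, 10.06, 11.19 and 11.51 in the 24 h livers, 7.96, 7.26 and 7.93 in the sham kidneys and 9.67, 9.67 and 9.33 in the 24 h kidneys. It fell 3.66-fold in liver and rose 3.57-fold in kidney with no overlap in either (difference 3.71 ± 0.59 SE, adjusted p = 2.70e-04). Slco2b1, an organic anion carrier, Mgll, monoacylglycerol lipase, and Slc25a20, the carnitine-acylcarnitine carrier, differed by 3.56 ± 0.32 SE, adjusted p = 2.15e-06, 2.35 ± 0.34 SE, adjusted p = 1.16e-04 and 2.30 ± 0.34 SE, adjusted p = 1.42e-04. Their kidney rises of 2.06-fold, 2.35-fold and 1.96-fold were lost in the kidney's own fit (limma adjusted p = 0.0555, 0.0549 and 0.057).

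**Figure D5:**
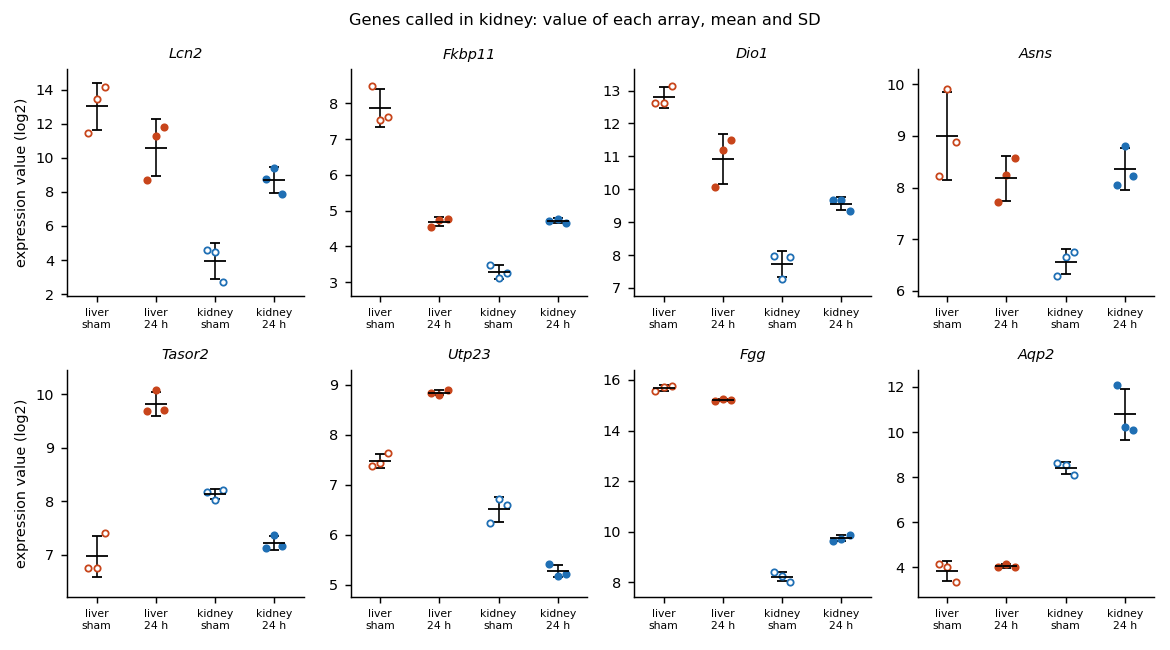
Expression value (log2) of 8 genes that passed in kidney, in each of the 12 arrays, open circles for sham and filled circles for 24 h, with the mean and SD of 3 arrays. Lcn2, Fkbp11, Dio1, Asns, Fgg and Aqp2 are higher and Tasor2 and Utp23 lower in all 3 treated kidneys than in any sham kidney.

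In 85 of the 3519 genes kidney alone had passed. The largest of these, picked after their values were seen, included rises of Cables1, Nuak2 and Tmem37. The sham liver readings of Cables1 recur as background, so no liver response was measured for it, as for Kcnj10 and Aqp2 above. How many of the 85 genes have such liver readings was not counted. Nuak2, a kinase of the AMPK family, read 7.42, 7.37 and 7.56 in the sham livers, 6.61, 6.58 and 6.67 in the 24 h livers, 7.83, 7.84 and 8.22 in the sham kidneys and 9.29, 10.39 and 10.25 in the 24 h kidneys (difference 2.84 ± 0.54 SE, adjusted p = 0.00106), but with each tissue's own fit the kidney call was lost (limma adjusted p = 0.0574) and a fall in liver was called (limma adjusted p = 0.00201). Tmem37, a calcium channel subunit, read 9.58, 9.47 and 8.65 in the sham livers, 8.49, 9.01 and 9.18 in the 24 h livers, 7.21, 7.69 and 8.23 in the sham kidneys and 9.76, 9.84 and 9.52 in the 24 h kidneys, with overlapping liver groups and separate kidney groups (difference 2.34 ± 0.45 SE, adjusted p = 0.0011). Cyp2d22, a cytochrome P450 with close paralogues, rose 2.83-fold in kidney (difference 1.77 ± 0.21 SE, adjusted p = 3.13e-05). Among the falls, Agps, of ether lipid synthesis, read 11.85, 11.58 and 12.44 in the sham kidneys and 10.70, 10.30 and 10.61 in the 24 h kidneys, and Fam151a 10.26, 10.57 and 10.19 in the sham kidneys and 9.54, 8.55 and 9.17 in the 24 h kidneys, both with liver near background (differences -1.77 ± 0.44 SE, adjusted p = 0.00651 and -1.12 ± 0.30 SE, adjusted p = 0.0104). The difference of Agps missed the threshold when all its probe sets were averaged. Slc51a, a subunit of the bile acid exporter of epithelia, fell 5.76-fold in kidney, at 10.85, 10.45 and 10.57 in the sham kidneys and 9.10, 7.12 and 8.08 in the 24 h kidneys, with liver at background. Its difference of -2.10 ± 0.66 SE, adjusted p = 0.0224 was lost without 24 h kidney B or sham liver B.

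Of the 244 genes that passed in kidney, 85 passed in liver in the same direction and 48 in the opposite one. Of all genes 49.5% passed in liver, so an overlap near this size comes with the liver count alone. The same-direction genes were 31 higher and 54 lower. Their count was 202 with each tissue's own fit. It was 22, 23, 26, 35, 40 and 53 without sham kidney B, sham kidney C, 24 h kidney B, sham kidney A, 24 h kidney A and sham liver B, and 170 without 48 h liver C. In 46 of them the 95% interval of the difference lay within 1 in either direction, 20 higher and 26 lower, as it did in 3006 (30.2%) of all genes. Cbr1 read 10.44, 10.50 and 9.57 in the sham livers, 11.95, 11.53 and 11.38 in the 24 h livers, 8.97, 8.41 and 8.17 in the sham kidneys and 10.25, 10.19 and 9.85 in the 24 h kidneys. It rose 2.73-fold in liver and 2.99-fold in kidney, with an interval of -0.71 to 0.97. Sh3bgrl3 rose 2.56-fold and 1.95-fold (interval -0.89 to 0.11), and Akr1c19, an aldo-keto reductase, 2.32-fold and 1.93-fold (interval -0.86 to 0.32). Esrrb, an orphan nuclear receptor, and Casr, the calcium-sensing receptor, also rose in both, from liver readings at background. For Esrrb another probe set gave a called difference of 1.71.

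Of the shared falls whose interval lay within 1, a choice that itself limits how far the organs can differ, those named below had the largest mean responses. Fnip2, which binds folliculin and AMPK, read 9.91, 10.50 and 10.40 in the sham livers, 8.96, 9.21 and 8.73 in the 24 h livers, 11.14, 11.77 and 11.90 in the sham kidneys and 10.21, 10.16 and 10.39 in the 24 h kidneys. It fell 2.46-fold in liver and 2.55-fold in kidney, with an interval of the difference of -0.69 to 0.59. Scrn3, a secernin, fell 2.37-fold and 2.48-fold (interval -0.83 to 0.70). Sbk1, a kinase, fell 2.34-fold and 2.06-fold (interval -0.30 to 0.68), and Tmem30a, the partner of phospholipid flippases, 2.21-fold and 1.84-fold (interval -0.23 to 0.76). Other probe sets of Sbk1 and Tmem30a gave differences up to 0.86 and 1.24. Ppp1r12b, a subunit of myosin phosphatase, passed in both as well, from kidney readings at background.

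In oxidative phosphorylation no member had a called difference. Of 27 tested subunits 3 fell in liver and 0 passed in kidney (3 fell with its own fit), and 0 of 27 differed past the threshold by limma (at an unadjusted p under 0.05, 1 did). The medians were -0.14 in liver and -0.06 in kidney. Atp5b, the beta subunit of ATP synthase, had an interval of -0.33 to 0.16, and Ndufs1, of complex I, 0.01 to 0.64. Of 13 tested genes of the proximal tubule 1 differed, Slc4a4, the bicarbonate carrier, which read 9.54, 10.19 and 10.10 in the sham livers, 7.18, 6.65 and 6.66 in the 24 h livers, 14.01, 14.05 and 14.23 in the sham kidneys and 14.29, 14.25 and 14.50 in the 24 h kidneys. It fell 8.66-fold in liver with a kidney response of 0.25 that did not pass (difference 3.36 ± 0.29 SE, adjusted p = 1.78e-06). The 21 proximal genes on the array summed to 18.17 to 18.32 in sham and 18.05 to 18.16 in treated kidney.

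Of 12 tested macrophage markers 8 rose in liver, 0 passed in kidney and 5 differed with the liver above, beside 19.6% of all genes. C1qb, a complement component of macrophages, read 11.75, 12.20 and 11.94 in the sham livers, 13.50, 13.47 and 13.43 in the 24 h livers, 10.32, 10.19 and 9.58 in the sham kidneys and 9.28, 10.67 and 10.27 in the 24 h kidneys (difference -1.46 ± 0.40 SE, adjusted p = 0.011). Cd5l, which Kupffer cells secrete, rose 2.44-fold in liver (difference -2.02 ± 0.44 SE, adjusted p = 0.00248), and Ctss, cathepsin S, 1.84-fold (-1.17). Of 13 endothelial markers 7 rose in liver and 3 differed with the liver above, a share near that of all genes and no result about the list. Stab1, a scavenger receptor, was 1 of them (-0.99 ± 0.26 SE, adjusted p = 0.00938). Of the neutrophil and lymphocyte markers 2 each could be tested, and none differed. Of 12 cell cycle genes 0 passed in kidney and 5 differed, all with the liver above. Among them were Mcm2, of the replicative helicase, which rose at least 7.84-fold in liver (difference -2.96 ± 0.87 SE, adjusted p = 0.0162), and Mcm7 (-2.27 ± 0.49 SE, adjusted p = 0.0023). The sham kidneys of both were unequal, at 8.24, 7.61 and 6.89 for Mcm2 and 9.48, 9.14 and 8.31 for Mcm7.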

How the data were processed

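RNA of liver and kidney was read on Affymetrix mouse arrays, and the log2 values used are those the authors deposited, made with gcRMA per the series' design text and the submitters' processing notes, with no version given in the sources used here. The design text names a rank product test, not used here. Of 45101 probe sets, 34945 name 1 gene in the platform annotation, 932 several and 9160 none, and 64 are controls. For each of 18193 genes the set with the highest mean was kept. Genes more than 1 above the lowest value (2.21) in at least 3 arrays of each tissue were tested with limma 3.58.1 (R 4.3.3) on 6 group means over all 18 arrays, with an intensity trend, two-sided, at an adjusted p under 0.05. The procedure was tested on simulated data with normal spread around group means. These held no recurring background readings, so the test says nothing about the differences that are bounds or have none.

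Members and lists were chosen with earlier results of these data known, so no pattern here is independent support for them. Named genes were, of the called ones, the 8 largest differences each way among genes above the limit in all 12 arrays, 4 each way among the others, 6 each way with opposite calls, 5 shared ones each way, up to 4 per list by p, and a fixed panel. Perp, Ei24, Ephx1, Uck2, Uckl1, Hspa1a, Hspa1b, Lgals3, Krt18, Idi1, Srebf1, Scd1, Cyp4a14, Hpd, Pdia6, Hspa5, Atf4, Apoh, Atp5b, Ndufs1, Agps, Fam151a, Aqp2, Cables1, Nuak2 and Tmem37 were named after their values were seen. Letters A to C number the arrays of a group. Same-letter liver and kidney arrays correlated in their deviations at -0.09 to 0.32 over 9336 genes, and nothing states that they share a mouse, so they were not paired. Promoters are from RefSeq (GRCm38.p6). Alternatives changed the filter, the probe set rule, the scaling, the fit, the block and the arrays used.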

Additional observations from a re-analysis of the deposited data

Results flagged for a closer look

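The responses of kidney and liver differed in 3519 genes by the test of the difference itself. In the 12 genes below the organs also moved in opposite directions, each past the threshold. Those that rose in liver and fell in kidney were Tasor2 (difference -3.76), Btnl9 (-2.96), Stam (-2.76), Utp23 (-2.61), Mtrex (-2.51) and Utp20 (-2.27). Those that fell in liver and rose in kidney were Lcn2 (7.17), Fkbp11 (4.63), Dio1 (3.71), Slco2b1 (3.56), Mgll (2.35) and Slc25a20 (2.30). With each tissue's own fit the liver call of Lcn2 and the kidney calls of Slco2b1, Mgll and Slc25a20 were lost. The second probe set of Fkbp11 differed by only 0.15. The number of genes with opposite calls does not stand out from the shares of all genes that passed in liver.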

How the results depend on the processing

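Counts for the difference, for liver and for list members stayed within 1.5 times their value under all alternatives run, except that testing every probe set gave 5293 differences and 7572 liver calls among 16215 sets. Leaving out 1 array gave 2942 to 4149 differences, 4318 to 5428 liver calls, 51 to 477 kidney calls, 5 to 97 opposite and 22 to 170 shared calls. Kidney, opposite and shared calls depended on how the spread was estimated. Kidney calls were 692 with each tissue's own fit, 1092 with 1 weight per tissue and 1451 with array weights. Opposite calls were 180 and 350 with these weights, and shared calls 202, 291 and 508. Of 153 named genes with a called difference, 135 were called in every leave-one-out fit that tested them and 126 under all 15 other alternatives. Averaging all probe sets turned the sign of Hfe (-0.26) and Fn1 (-0.18), and the cause was not tested. With a replicate block, 3418 genes differed when the letter was the block and 3399 when arrays of 1 letter and treatment were taken as 1 mouse. The letter block moved none of the 6 counts by over 1.5 times. The mouse block was run only for differences and list members. The share of calls with the kidney above was 44.4% as reported and 50.8% with 75th percentile centring.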

Other observations

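Of 26 tested proteasome subunits 5 differed with the liver above and 2 with the kidney above, and the medians were -0.03 in liver and -0.10 in kidney. Of 17 genes of death receptors and the BCL2 family 4 had the liver above and 2 the kidney above, with 8 rising and 3 falling in liver. Of 13 tubulins and intermediate filaments 3 differed, all with the liver above, while Krt18 rose in kidney. Of 13 metallothionein and iron genes 2 had the liver above and 1 the kidney above. Of 14 genes of the glucocorticoid response 1 differed in each direction, and 3 rose and 1 fell in liver. Of 7 hepatocyte transcription factors that kidney also expresses 2 differed with the kidney above, and 3 fell in liver. Of 13 stellate cell and matrix genes 3 had the liver above and 1 the kidney above. Of all genes tested, 19.6% had the liver above and 15.7% the kidney above.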
